A study of Mus musculus with 41 samples.

Results

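Livers with steatohepatitis (NASH) in 3 MupHe samples were compared with fatty livers that the labels call healthy from 3 IgAkCLM samples, which is 6 of the 41 samples of the series. The members were chosen by label: the MupHe samples of the NASH stage on a high-fat diet (HFD), and the IgAkCLM controls on HFD. The series sequenced polyA RNA from livers and liver tumours, in groups that differ by genotype, diet and stage, and every group used here is labelled male C57BL/6. Both groups compared were on HFD, and their columns in the deposited table share the tag Tri-N, which the labels do not explain. Age, the alleles behind the names MupHe and IgAkCLM, and whether samples came from separate animals are not given in the labels, so p-values measure the spread between these samples, which may be technical. Genotype and stage change together between these groups, so that effects of MupHe, of IgAkCLM and of NASH cannot be told apart. Libraries are numbered as the column names end: MupHe NASH 1, 2 and 6, and IgAkCLM 1, 2 and 3.

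Steatohepatitis is a fatty liver with hepatocyte injury, inflammation and, in time, scarring. In such livers stressed hepatocytes switch on stress transcription factors, resident macrophages called Kupffer cells are joined by macrophages from blood monocytes, and stellate cells deposit collagen. The published work on this model used mice in which hepatocytes make urokinase under a major urinary protein promoter, crossed to mice without IgA or CD8; the labels do not say this of any group.

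Values are regularized log2 (rlog) values as the authors deposited them, and every difference below is MupHe NASH minus IgAkCLM on that log2 scale unless another pair is named. At low counts the rlog transform pulls a gene's libraries together, so fold changes of faint genes come out too small. No counts were used, so the depth of each library is unknown. A gene is called here when limma's Benjamini-Hochberg adjusted p was under 0.05 over the 12227 genes with a mean of at least 3.

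MupHe NASH livers differed from IgAkCLM livers at 427 genes, of which 271 rose and 156 fell. These were 3.49% of the genes tested, 2.22% in the higher direction and 1.28% in the lower. The called differences reached at least 1 on the log2 scale for 90 genes that rose and for 19 that fell, and the median difference over all tested genes was -0.0038. In 426 of the 427 genes the 3 MupHe NASH values lay wholly on one side of the 3 IgAkCLM values, against 28.8% of all tested genes. The call rests on the same values, so this adds no support to it. The count of calls moved with the fit: it was 69 when tumours and NC livers (a healthy stage whose name the labels do not expand) shared the estimate of spread. It was 116, 120, 139 and 159 without MupHe NASH 2, MupHe NASH 1, IgAkCLM 1 and IgAkCLM 2 in turn, and 667 without IgAkCLM 3.

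The libraries did not stand equally far apart. On a scale where the IgAkCLM mean is 0 and the MupHe NASH mean is 1, the median called gene stood at 1.08, 1.04 and 0.88 in MupHe NASH 1, 2 and 6. IgAkCLM 3 differed from its group in clock genes: Dbp, a clock output factor, read 9.63, 9.90 and 6.07 in IgAkCLM 1, 2 and 3, and 6.09, 7.53 and 7.52 in MupHe NASH 1, 2 and 6. Arntl, which encodes the clock activator BMAL1, read 5.83, 5.56 and 7.78 in the controls and 7.41, 7.03 and 6.57 in MupHe NASH. IgAkCLM 3 thus lay on the MupHe NASH side of its own group in both genes, and the groups overlapped. None of the 17 clock genes tested was called, with a list median of -0.58, but without MupHe NASH 6 and IgAkCLM 3 together 9 were lower and 3 higher. The part of clock phase in the differences below was not tested.

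Hepatocyte markers were high in all 6 libraries, with Alb, the albumin gene, between 19.3 and 19.8. Of 14 secreted hepatocyte proteins only Apoc3 fell, by 0.52, although 10 of the 14 were lower without overlap, against 15.3% of all genes. Their summed level ran from 20.07 to 20.20 in MupHe NASH and from 20.44 to 20.47 in IgAkCLM. Of 10 digestive enzymes of the neighbouring pancreas only Cela1 was high enough to test, and it was not called (-0.49, adjusted p 0.21). In whole liver, fewer cells of a type and less RNA per cell cannot be told apart.

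Plau, the gene of urokinase, was examined first among the genes the genotype names point to. It read 5.87, 6.02 and 5.27 in MupHe NASH 1, 2 and 6, and 4.69, 4.87 and 4.99 in IgAkCLM 1, 2 and 3. MupHe NASH values all lay above the controls, yet the difference of 0.87 ± 0.26 (SE) was not called (limma adjusted p 0.081). The call depended on the fit: Plau passed the threshold in 5 of 16 alternatives, among them the fit without MupHe NASH 6, with adjusted p from 0.0022 to 0.65 over the 16. Of the 10 genes of the urokinase and plasminogen system tested, Plat, the tissue plasminogen activator, rose by 0.61, and Serpine2, a serpin that inhibits urokinase and thrombin, fell by 1.08 (adjusted p 0.032 and 0.0018). Plat lost its call in 8 of 15 alternatives. B6 livers on HFD averaged 5.03 for Plat and 6.20 for Serpine2, both above the MupHe NASH means of 4.30 and 5.01. Igha, which encodes the IgA constant region, has no row in the table used here. Jchain, the joining chain of IgA, was not called (1.23, adjusted p 0.080), nor was Pigr, the receptor that carries IgA across epithelia (-0.57, adjusted p 0.083).

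**Figure D1:**
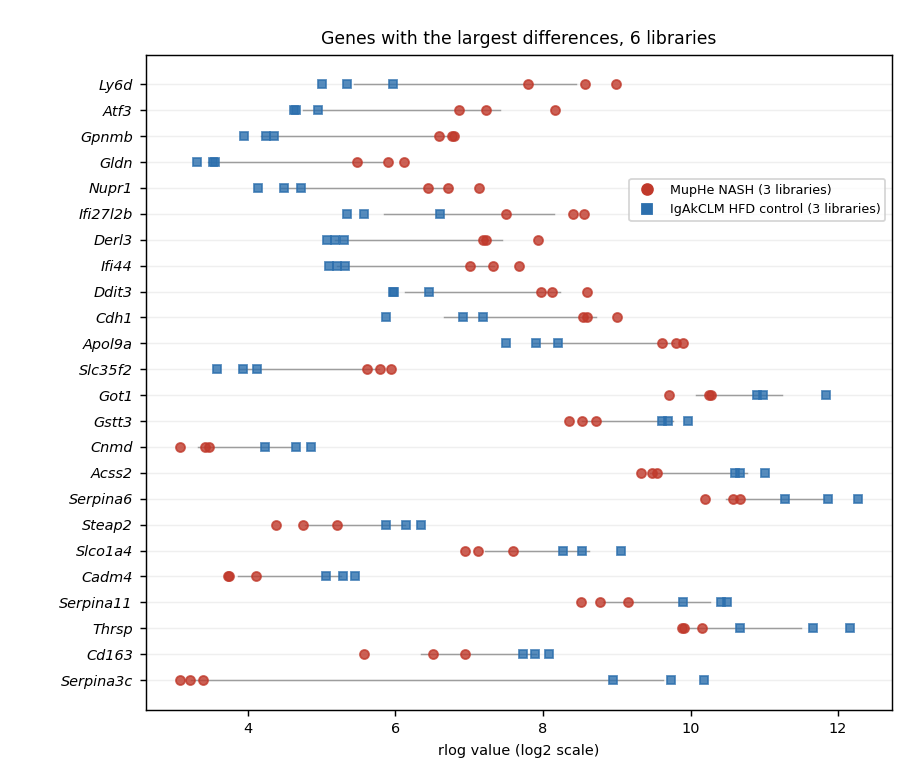
Values in each library of the 24 named genes with the largest called differences (12 higher, 12 lower). The x axis is the rlog value (log2 scale), red circles are the 3 MupHe NASH and blue squares the 3 IgAkCLM libraries, and grey lines join the group means. The genes were chosen so that the groups do not overlap, and Serpina3c shows the widest gap, from 3.39 to 8.94.

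Type I interferon targets formed the broadest group that rose. Of 30 tested, 25 were called higher and none lower, against 2.22% of all genes, and all 30 stood above the controls without overlap, against 13.5% of all genes. The list median was 1.07, and the 5 members not called, Mx1, Ddx58, Ifih1, Stat2 and Irf9, differed by 0.35 to 0.63. Type I interferons bind a receptor at the cell surface and switch on antiviral genes through a promoter element.

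Ifi44, an interferon-induced antiviral protein, read 7.33, 7.67 and 7.01 in MupHe NASH and 5.31, 5.09 and 5.21 in IgAkCLM. It rose by 2.13 ± 0.25 (limma adjusted p 0.0012), the largest difference of the list. Usp18, a protease that removes ISG15 and dampens the interferon receptor, read 8.28, 8.37 and 8.27 against 6.66, 6.76 and 5.99, and rose by 1.84 ± 0.21 (adjusted p 0.0012). Irf7, a transcription factor that amplifies the response, read 9.82, 9.99 and 9.61 against 8.28, 8.14 and 7.83, and rose by 1.72 ± 0.16 (adjusted p 0.00036). Ifit1, which binds foreign RNA, read 8.30, 8.53 and 8.27 against 6.81, 7.03 and 6.26 and rose by 1.67 ± 0.21 (adjusted p 0.0018). In all 4 genes the lowest MupHe NASH library exceeded the highest control by more than 1. These 4 genes stayed past the threshold in every alternative fit, and the list had 16 calls in the fit with all groups and 18 to 25 when 1 library was left out.

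Promoters of this list often held the core of the interferon response element, GAAA, any 2 bases and GAAA again, on either strand. In RefSeq windows of GRCm38.p6, from 250 bases before to 50 after the start, 11 of the 20 members with a window held it (55.0%), against 3.99% of all genes with a window. Among called genes with a window, 16.5% of those that rose and 3.28% of those that fell held it. The 200 bases before the start are shown for Ifit1 (chr19:34640689-34640888, plus strand) and for Isg15 (chr4:156200819-156201018, minus strand), as examples of a member with separate matches and one with overlapping matches, with each match in capitals. Isg15, a ubiquitin-like modifier, rose by 1.52 and read 7.82, 7.96 and 7.90 against 6.75, 6.39 and 5.98.
Ifit1: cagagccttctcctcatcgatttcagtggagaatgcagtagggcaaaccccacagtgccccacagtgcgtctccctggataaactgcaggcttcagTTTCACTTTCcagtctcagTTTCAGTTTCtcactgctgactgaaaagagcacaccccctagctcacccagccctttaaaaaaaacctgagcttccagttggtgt
Isg15: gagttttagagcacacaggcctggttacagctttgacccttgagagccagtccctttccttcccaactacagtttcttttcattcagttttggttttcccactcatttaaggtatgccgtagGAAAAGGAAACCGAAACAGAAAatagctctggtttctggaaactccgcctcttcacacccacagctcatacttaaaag
In Ifit1 the capitals are the element read on the opposite strand.

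Of 19 integrated stress response genes tested, 4 rose and 2 fell, against 2.22% and 1.28% of all genes. The other 13 did not pass the test, and the list median was 0.54. Atf3, a transcription factor induced by cell stress, read 7.22, 8.16 and 6.86 in MupHe NASH and 4.62, 4.65 and 4.95 in IgAkCLM, and rose by 2.68 ± 0.45 (limma adjusted p 0.0072). Nupr1, a small stress-induced chromatin protein, read 6.72, 7.13 and 6.44 against 4.14, 4.72 and 4.49, and rose by 2.32 ± 0.29 (adjusted p 0.0017). Ddit3, which encodes CHOP, a factor linked to death after endoplasmic reticulum stress, read 8.12, 8.60 and 7.97 against 5.98, 5.96 and 6.45, and rose by 2.10 ± 0.29 (adjusted p 0.0028). The groups stood far apart in all 3, with MupHe NASH 2 the highest library each time. Gdf15, a circulating stress hormone, rose by 1.05, while Shmt2, a mitochondrial serine enzyme, fell by 0.52 and Vldlr, a lipoprotein receptor, fell by 0.57. The list held 3 higher and no lower calls in the fit with all groups, and 3 to 4 higher and 0 to 2 lower when 1 library was left out. Its median fell to 0.27 without MupHe NASH 2. Gdf15 lost its call in 8 of 16 alternative fits. Its mean in B6 livers on HFD was 7.02, above 6.42 in MupHe NASH. Atf3, Nupr1 and Ddit3 averaged 5.93, 5.58 and 7.35 in B6 on HFD, below the MupHe NASH means of 7.42, 6.76 and 8.23. Reads of Ddit3 and of its overlapping neighbours Mars1 and Mbd6 may be shared, since the counting is not described.

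The ATF4 family recognises an amino acid response element, TTGCATCA on either strand, which 6 of 19 list members held in their RefSeq window (31.6%), against 1.03% of all genes with a window. The 6 were Atf3, Nupr1, Chac1, Fgf21, Slc7a11 and Vldlr, of which Atf3 and Nupr1 rose, Vldlr fell and the others were not called. Among called genes with a window, 3.0% of those that rose and 2.46% of those that fell held it. The Atf3 promoter (chr1:191183334-191183533, minus strand) and the Nupr1 promoter (chr7:126625471-126625670, minus strand) are shown as those of the 2 list members with a match that rose, each with 1 match, in capitals.
Atf3: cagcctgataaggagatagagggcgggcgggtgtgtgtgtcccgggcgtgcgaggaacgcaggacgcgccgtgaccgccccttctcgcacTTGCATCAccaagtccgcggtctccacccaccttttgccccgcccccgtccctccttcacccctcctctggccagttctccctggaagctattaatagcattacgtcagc
Nupr1: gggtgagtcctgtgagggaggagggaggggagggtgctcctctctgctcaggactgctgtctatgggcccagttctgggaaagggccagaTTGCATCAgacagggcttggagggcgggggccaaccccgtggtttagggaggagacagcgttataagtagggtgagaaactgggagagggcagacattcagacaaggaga
Matches are descriptions of these letters and not evidence of binding.

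Few folding and disposal genes of the endoplasmic reticulum passed the test. Of 20 tested, Derl3, which helps to remove misfolded proteins, rose by 2.26 ± 0.33 (7.23, 7.93 and 7.18 against 5.18, 5.30 and 5.08). Creld2, a secretory pathway chaperone, rose by 1.14 ± 0.26, and the list median was 0.18. These 2 of 20 were called higher, against 2.22% of all genes. Among 17 p53 targets, 5 rose and 1 fell, against 2.22% and 1.28% of all genes. Eda2r rose by 0.99, Plk2 by 0.60, Mdm2 by 0.46, Fas by 0.43 and Ccng1 by 0.38, and Sesn1 fell by 0.44. None of 16 NRF2 targets, the oxidative defence genes, was called in limma's fit, with a median of 0.48. Their lowest adjusted p was 0.0996, for Srxn1 and Osgin1, and 4 were called higher without MupHe NASH 6 and IgAkCLM 3. No call of the chaperone or p53 lists remained in the fit with all groups, and p53 calls ranged from 0 to 6 higher when 1 library was left out.

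Cell division genes rose in part. Of 23 tested, 7 were called higher and none lower, against 2.22% and 1.28% of all genes, with a median of 0.48. Mki67, a marker of dividing cells, read 6.79, 6.85 and 5.83 in MupHe NASH and 4.88, 5.42 and 5.27 in IgAkCLM, and rose by 1.30 ± 0.23 (limma adjusted p 0.010). MupHe NASH 6 lay nearest to the controls and still above all of them. Ccnd1, the cyclin of early division, rose by 1.62, and Top2a and Ccnb2, both active in dividing cells, rose by 1.10 and 1.07. The list held 2 calls in the fit with all groups and 2 to 13 when 1 library was left out, the most without MupHe NASH 6.

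**Figure D2:**
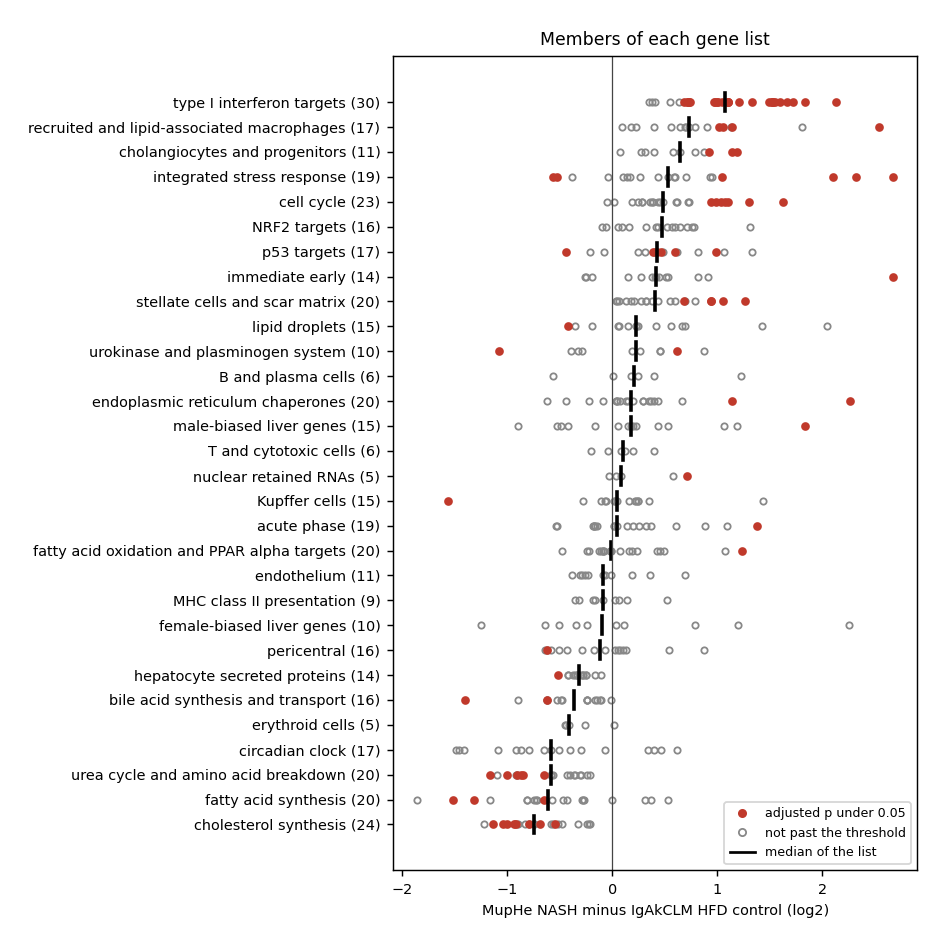
Difference of every tested member of each list (circles, log2), with the list median as a black bar and the number tested in brackets. Filled red circles passed the adjusted p threshold. Type I interferon targets lie farthest to the right, with a median of 1.07, and cholesterol synthesis farthest to the left, with -0.75.

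Recruited macrophage genes rose in part, and 1 Kupffer cell gene fell. Of 17 genes of recruited and lipid-associated macrophages, 4 rose and none fell, against 2.22% and 1.28% of all genes, with a median of 0.73. Of the 17, 13 stood above the controls without overlap, against 13.5% of all genes. Gpnmb, a membrane glycoprotein of lipid-laden macrophages, read 6.77, 6.59 and 6.79 in MupHe NASH and 3.95, 4.25 and 4.36 in IgAkCLM, and rose by 2.54 ± 0.41 (limma adjusted p 0.0062). Spp1, osteopontin, rose by 1.14 ± 0.15, from values of 8.78, 8.76 and 8.84 to 9.96, 10.03 and 9.79. Ms4a7 and Cx3cr1, a chemokine receptor of monocyte-derived cells, rose by 1.06 and 1.02. The summed level of the list ran from 12.67 to 12.88 in MupHe NASH and from 12.28 to 12.46 in IgAkCLM.

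Of 15 Kupffer cell genes, Cd163 alone was called. This receptor for haemoglobin bound to haptoglobin read 5.58, 6.50 and 6.94 in MupHe NASH against 8.09, 7.89 and 7.73, and fell by 1.56 ± 0.27 (limma adjusted p 0.0090). MupHe NASH 1 was the lowest, and no library reached the controls. The list median was 0.05 and its summed levels overlapped, at 13.05 to 13.51 against 13.01 to 13.29. Cd163 was past the threshold in every alternative fit, while no recruited macrophage gene was called in the fit with all groups.

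Scar matrix genes rose for the main collagens. Of 20 stellate cell and matrix genes, 5 rose and none fell, against 2.22% and 1.28% of all genes, with a median of 0.41. Col1a1, a chain of type I collagen, read 7.16, 6.48 and 5.96 in MupHe NASH and 4.96, 5.28 and 5.58 in IgAkCLM, and rose by 1.26 ± 0.30 (limma adjusted p 0.037). Col1a2, Col3a1, Lum, a collagen-binding proteoglycan, and Tagln, a contractile protein, rose by 1.05, 0.94, 0.94 and 0.68. In Col1a1 the gap between groups was narrow, with MupHe NASH 6 just above IgAkCLM 3. None was called in the fit with all groups, and 1 to 6 were when a library was left out. In B6 livers, the other HFD control used here, Col1a1, Col1a2 and Col3a1 averaged 6.69, 7.44 and 8.96. The MupHe NASH means were 6.53, 7.40 and 8.74. Lum averaged 6.47 in B6 on HFD and 7.06 in MupHe NASH.

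Bile duct and progenitor genes showed a smaller set of calls. Of 11 tested, 3 were called, all higher, against 2.22% of all genes, and the list median was 0.64. Cd24a, Spp1 and Epcam, the epithelial cell adhesion molecule, rose by 1.18, 1.14 and 0.93. The summed level of the list was 10.4 to 10.7 in MupHe NASH and 9.55 to 9.74 in IgAkCLM. Cdh1, which encodes E-cadherin and is in none of the lists, read 9.01, 8.60 and 8.54 against 6.91, 5.87 and 7.19, and rose by 2.06 ± 0.33 (limma adjusted p 0.0058). Cdh1 averaged 8.72 in MupHe NASH, 8.51 in B6 NC, 9.51 in MupHe NC and 7.08 in B6 on HFD. Epcam averaged 5.29, 5.59, 5.76 and 4.48 in these groups, Cd24a 6.34, 5.41, 5.94 and 5.67, and Spp1 9.93, 8.80, 9.92 and 9.59. No gene of the list was called in the fit with all groups. The part of epithelial cell number in these rises was not tested.

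Lymphocyte genes gave no call. Cd8a read 3.30, 3.39 and 3.38 in MupHe NASH and 3.23, 3.18 and 3.30 in IgAkCLM, near the bottom of the tested range (0.12 ± 0.11, adjusted p 0.57). Cd4, also a marker of some macrophages, differed by 0.39 ± 0.18 (adjusted p 0.23). Of 17 T and cytotoxic cell genes only 6 passed the filter, and Cd8b1 did not. None of the tested B and plasma cell, neutrophil, endothelial, MHC class II, adipocyte or erythroid genes was called either, with 6, 4, 11, 9, 3 and 5 tested.

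Genes of lipid synthesis fell in part. In cholesterol synthesis, the pathway that SREBP2 drives from acetyl-CoA to sterol, 8 of 24 tested genes fell and none rose, against 1.28% of all genes. The median was -0.75, and 20 of the 24 lay below the controls without overlap, against 15.3% of all genes. Tm7sf2, a sterol reductase, read 8.59, 8.47 and 8.78 in MupHe NASH and 9.62, 9.41 and 9.93 in IgAkCLM, and fell by 1.04 ± 0.16 (limma adjusted p 0.0054). In the same pathway, Nsdhl fell by 1.13, Pmvk fell by 1.00 and Fdft1 fell by 0.93, with adjusted p from 0.037 to 0.049. The B6 HFD means of Tm7sf2, Nsdhl, Pmvk and Fdft1 were 8.83, 8.32, 8.09 and 8.95. Their MupHe NASH means were 8.61, 8.42, 7.585 and 8.78, and their IgAkCLM means 9.65, 9.55, 8.59 and 9.71. Each gene was highest in IgAkCLM among these HFD groups. The element searched for SREBP, TCACNCCAC on either strand, was in 1 of 16 cholesterol promoters with a window (6.25%), against 1.44% of all genes with a window. Among called genes with a window, 1.0% of those that rose and 7.38% of those that fell held it. The 9 fallen genes that held it were all outside the cholesterol list, and Hmgcs1, its 1 member with a match, was not called.

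In fatty acid synthesis, 3 of 20 genes fell and none rose, against 1.28% and 2.22% of all genes, with a median of -0.61. Thrsp, a lipogenic regulator, read 9.91, 10.16 and 9.88 in MupHe NASH and 11.66, 12.16 and 10.67 in IgAkCLM, and fell by 1.51 ± 0.36 (limma adjusted p 0.037). Acss2, which makes acetyl-CoA from acetate, read 9.55, 9.48 and 9.32 against 10.67, 10.60 and 11.00, and fell by 1.31 ± 0.26 (adjusted p 0.018). The MupHe NASH libraries were close together in both genes, while IgAkCLM 3 was the lowest control for Thrsp and the highest for Acss2. Dgat2, which makes triglyceride, fell by 0.65. B6 livers on HFD averaged 10.42, 9.69 and 12.19 for Thrsp, Acss2 and Dgat2, between the MupHe NASH and IgAkCLM means of each. Among 15 lipid droplet genes Cideb, which loads lipid onto secreted lipoproteins, fell by 0.42, and Cidea, a droplet protein of fat tissue, was not called at 2.05 (adjusted p 0.088). Of 20 fatty acid oxidation genes, only Cyp4a31, a fatty acid hydroxylase, was called, and it rose by 1.24. No call of the cholesterol or fatty acid synthesis lists remained in the fit with all groups, and 2 to 4 cholesterol genes were called when 1 library was left out.

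Genes of nitrogen disposal also fell in part. Of 20 urea cycle and amino acid breakdown genes 6 fell and none rose, against 1.28% and 2.22% of all genes, and the median was -0.58. Of the 20, 18 lay below the controls without overlap, against 15.3% of all genes. Cps1, the entry enzyme of the urea cycle, read 14.22, 14.32 and 14.21 in MupHe NASH and 15.69, 15.00 and 15.06 in IgAkCLM, and fell by 1.00 ± 0.23 (limma adjusted p 0.033). Got1, Prodh, Hpd, Asl and Arg1, of amino acid breakdown and the urea cycle, fell, with differences of -1.16, -0.90, -0.86, -0.85 and -0.65. Cps1, Got1, Prodh and Hpd averaged 14.35, 11.055, 9.30 and 13.64 in B6 livers on HFD. Their MupHe NASH means were 14.25, 10.08, 9.73 and 13.20, and their IgAkCLM means 15.25, 11.24, 10.63 and 14.07. Slco1a4, an uptake transporter of bile acids, and Cyp27a1, a sterol hydroxylase, fell, with differences of -1.40 and -0.62, among 16 bile acid genes. Each lost its call in 8 of 16 alternative fits, and the bile acid list held no call in the fit with all groups and 0 to 1 when 1 library was left out. Slco1a4 and Cyp27a1 averaged 8.26 and 11.21 in B6 on HFD, against 7.22 and 11.31 in MupHe NASH. The urea list held 2 calls after quantile normalization, none in the fit with all groups and 1 to 9 when 1 library was left out. The lower summed level of secreted hepatocyte proteins given above moved with these lists, and its part in them was not tested.

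Other genes with large differences belong to no list that moved. Ly6d, a membrane protein of the Ly6 family, read 8.99, 8.57 and 7.80 in MupHe NASH and 5.00, 5.34 and 5.96 in IgAkCLM, and rose by 3.02 ± 0.64 (limma adjusted p 0.023). The B6 HFD libraries read 8.61, 5.86 and 7.99 for Ly6d, overlapping MupHe NASH. Gldn, gliomedin, known from peripheral nerve, read 6.11, 5.48 and 5.90 against 3.31, 3.56 and 3.52, and rose by 2.37 ± 0.17 (adjusted p 3.0e-05). Apol9a rose by 1.90 and Slc35f2, a membrane transporter, by 1.90, and Ifi27l2b by 2.31. Apol9a held the core of the interferon response element in its RefSeq window, although it is not in the interferon list. Apol9a and Ifi27l2b have near copies beside them, so their reads may be split. Serpina6, which encodes the corticosteroid carrier of plasma, Cadm4, Steap2, Cnmd and Gstt3 fell, with differences of -1.32, -1.40, -1.35, -1.25 and -1.23. Lcn2, an acute phase protein, and Cyp4a12b, a male-biased hydroxylase, rose by 1.38 and 1.83 as the only calls among 19 acute phase and 15 male-biased genes. Meg3, a nuclear RNA, rose by 0.72 among 5 such RNAs, and none of 10 female-biased genes was called. Cyp4a12b averaged 9.26 in B6 NC and 9.57 in MupHe NC, above 8.19 in MupHe NASH. Meg3 averaged 5.70 and 6.45 in those NC groups, above 4.39 in MupHe NASH. Lcn2 lost its call in 10 of 16 alternative fits and Meg3 in 10 of 15. Of 16 pericentral genes Cyp27a1 alone was called, and of 14 immediate early genes Atf3 alone.

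Serpina3c had by far the largest difference. This serpin gene of a cluster of close copies, at chr12:104146907-104153929 (GRCm38.p6), read 3.22, 3.39 and 3.07 in MupHe NASH and 10.18, 9.74 and 8.94 in IgAkCLM. It fell by 6.40 ± 0.22 (limma adjusted p 4.8e-09). Across the series its level followed the genotype name: liver means were 9.62 ± 0.63 (SD, n = 3) in IgAkCLM on HFD, 9.06 ± 0.06 in IgAkMup NASH and 9.50 ± 0.39 in IgAkMup NC. All liver groups without IgAk in the name had means from 3.23 to 3.86, and IgAkMup tumours had 4.87 ± 1.34 (n = 4). Livers of IgAkMup NC and MupHe NC, which differ in the IgAk part of the name, differed by 5.83 ± 0.25 at this gene (adjusted p 6.9e-08). Only 3 more genes were called in that pair, 4 of 12279 or 0.0326%: Serpina3m rose by 1.99, and Nnt and Manf fell (differences of -0.57 and -0.62).

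Igha lies on the same chromosome, at chr12:113256204-113260236, 9.11 Mb beyond Serpina3c. Of 420 tested genes of chromosome 12, 23 were called in MupHe NASH against IgAkCLM, or 5.48%, the highest share of any chromosome. Of these 23, 13 rose and 10 fell, and 10 reached 1 on the log2 scale. Serpina6, Serpina11, Serpina3c and Serpina3m, within 1 Mb of each other, all fell, the last by 1.08. Ifi27l2b, also within 1 Mb of them, rose by 2.31, and the neighbours Serpina3k and Serpina3n were not called (-0.13 and 0.14). Between IgAkMup NC and MupHe NC, Serpina6 and Serpina11 were not called (0.53 and 0.56, limma adjusted p 0.24 and 0.28). Reads of close copies in this cluster may have been split.

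**Figure D3:**
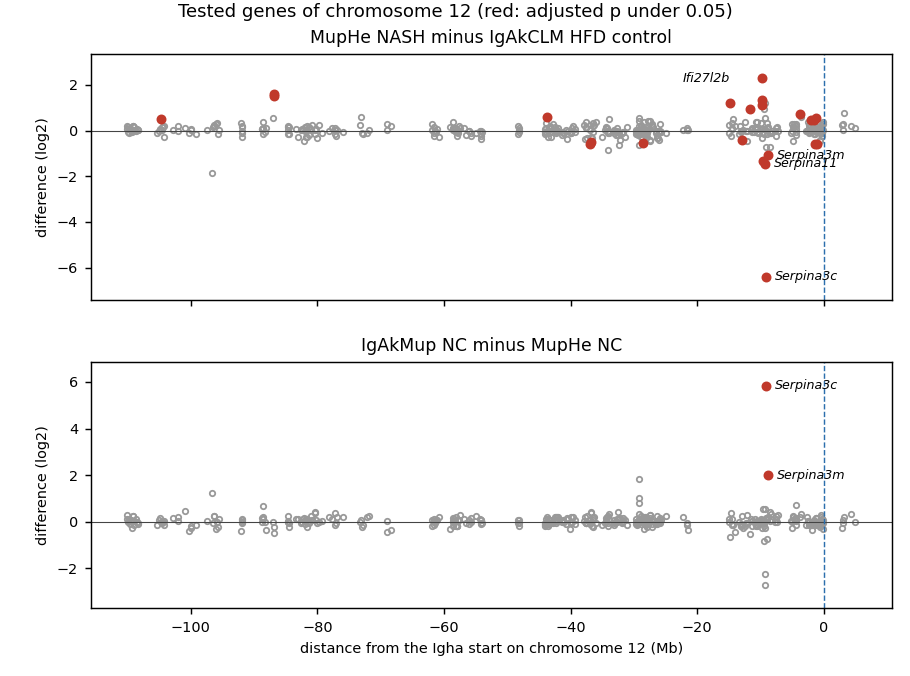
Differences of tested genes of chromosome 12 (y axis, log2) against distance from the Igha start (x axis, Mb). The upper panel is MupHe NASH minus IgAkCLM and the lower one IgAkMup NC minus MupHe NC, with called genes in red and the dashed line at Igha. Serpina3c, 9.11 Mb from Igha, is the farthest point in both panels, at -6.40 and 5.83.

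IgAkMup NASH against B6 HFD control livers shares no library with the comparison above, carries the tag SS-N, and has IgAk on the NASH side of the pair. There 313 genes were called, 2.56% of those tested. Of the 271 genes that rose in MupHe NASH, 236 had the same sign there and 83 were called higher there, which is 30.6% of the 271 and 42.1% of the 197 called higher in that pair (1.61% of genes tested). Of the 156 that fell, 102 had the same sign and 16 were called lower there, 10.3% of the 156 and 13.8% of the 116 called lower (0.949% of genes tested). The median differences were 0.80 and 0.41 for the genes that rose, and -0.58 and -0.09 for those that fell. Interferon targets had a median of 0.64 in that pair with 13 of 30 called higher, and Cdh1, Apol9a and Gldn rose by 1.93, 1.97 and 1.81. Atf3, Gpnmb and Ly6d were not called there, at 0.81, 0.57 and 0.55. Cholesterol synthesis genes had a median of 0.40 there, with 3 called higher. The urea cycle and amino acid breakdown list had a median of -0.17 there, with no call. Stellate cell and matrix genes had a median of -0.003 there, with 1 called higher. The stress response, chaperone and p53 lists had medians of -0.09, -0.20 and -0.12 there. Their only call was 1 lower gene of the stress response list.

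**Figure D4:**
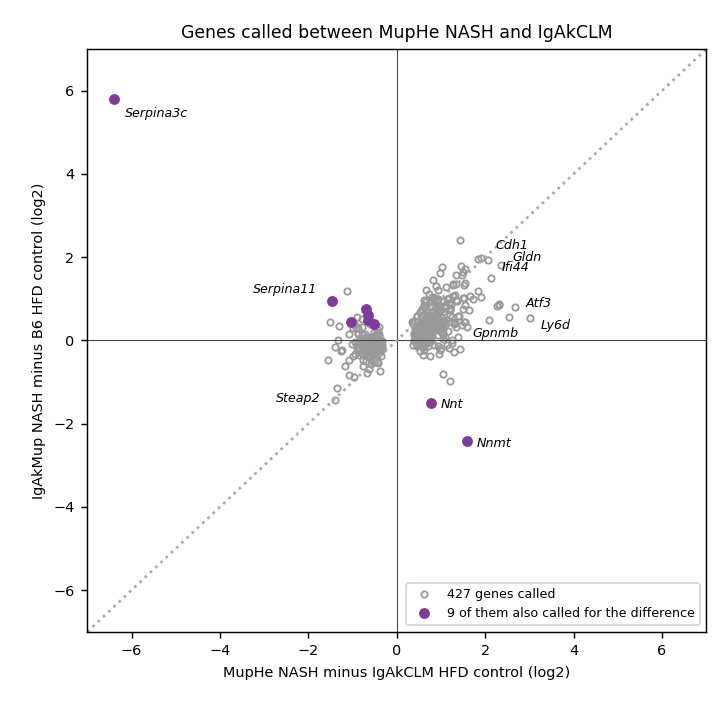
The 427 called genes, by their difference between MupHe NASH and IgAkCLM (x axis, log2) and between IgAkMup NASH and B6 on HFD (y axis, log2). Purple points are the 9 genes whose 2 differences were also called unequal, and the dotted line marks equal values. Serpina3c lies alone at -6.40 and 5.81, and Nnt and Nnmt lie in the opposite quadrant.

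Limma's test of the difference between the pairs called 12 genes, 0.0981% of those tested. Nnmt, a methyltransferase of nicotinamide, read 9.01, 9.04 and 9.43 in MupHe NASH and 7.73, 7.69 and 7.27 in IgAkCLM, and rose by 1.60 ± 0.34, while it fell by 2.42 in the other pair. Nnt, the mitochondrial transhydrogenase that C57BL/6J mice lack in full form, read 9.92, 9.95 and 9.99 against 9.003, 9.35 and 9.16. It rose by 0.78 ± 0.10 and fell by 1.50 in the other pair, and its liver means ran from 8.74 in CD8kMup NC to 10.72 in B6 on HFD. Tm7sf2 and Mvk, of cholesterol synthesis, were also among the 12, with differences between the pairs of -1.48 and -1.44. The substrain is not given in the labels, and its part in these values was not tested. IgAk changes sides and the tag changes between the pairs, so their parts cannot be told apart within these pairs. Among NC livers, whose columns all carry the tag Tri_NC, Serpina3c and Nnt were called in IgAkMup minus MupHe (5.83 and -0.57). Nnt was also called lower in MupHe NC than in B6 NC (-0.65, limma adjusted p 0.0023).

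**Figure D5:**
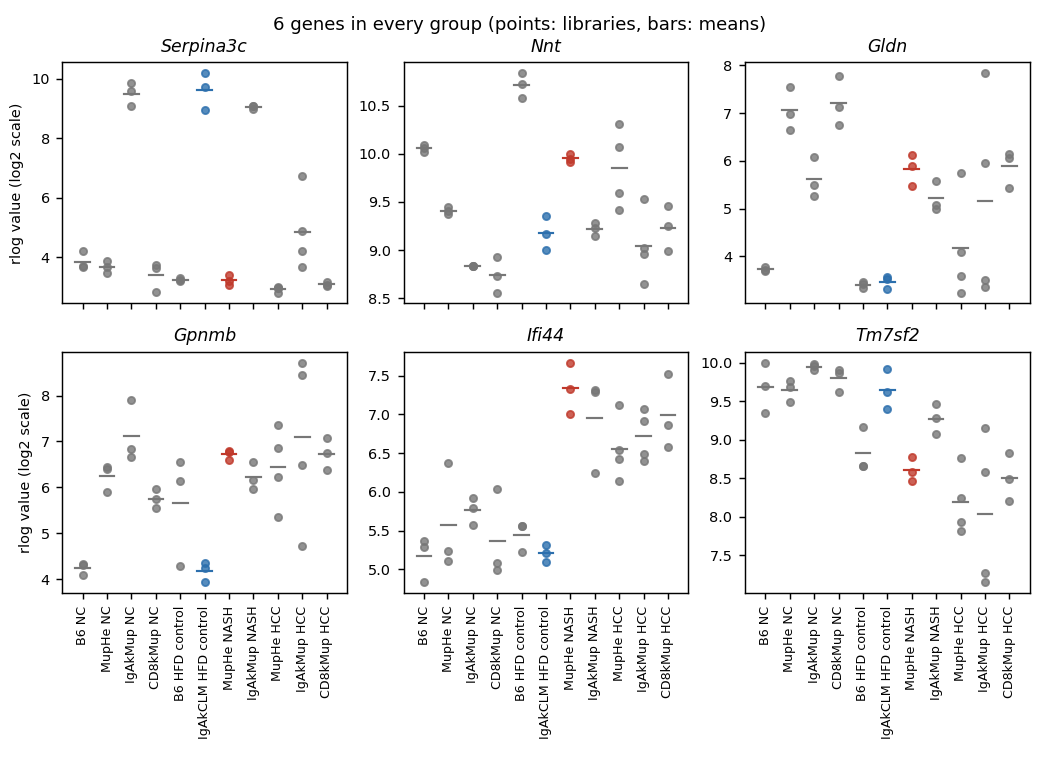
rlog values (y axis, log2 scale) of 6 genes in the 11 groups with matched columns, each point a library and each bar a group mean. MupHe NASH is red and IgAkCLM blue. Serpina3c is at 8.94 or above in every library of the 3 IgAk liver groups, and Gldn is lowest in the groups without Mup in the name and in some tumours.

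MupHe NC against B6 NC livers, a pair without HFD in its name, called 186 of 12279 genes, 1.51%. Of the 271 genes that rose in MupHe NASH, 243 had the same sign there and 44 were called higher, where 1.19% of all genes were, with a median of 0.34. Gldn rose by 3.34, Atf3 by 2.05, Gpnmb by 2.00, Ifi27l2b by 1.98, Derl3 by 1.77 and Nupr1 by 1.58 in that pair. Recruited macrophage genes had 6 of 17 called higher there, with a median of 0.57. Interferon targets had a median of 0.39 with 1 of 30 called, Oasl1, and Ifi44 differed by 0.41 (adjusted p 0.61). Cholesterol synthesis and the urea list had medians of -0.03 and -0.18 with no call, and the genes that fell in MupHe NASH had a median of -0.15 with 3 of 156 called lower, where 0.326% of all genes were.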

How the data were processed

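PolyA RNA of liver was sequenced from TruSeq Stranded mRNA libraries made from 100 ng of RNA, and some livers were homogenized in Trizol, per the labels' protocols, which do not say which. The values are rlog2 values on a log2 scale, deposited by the authors as 1 table of 24511 genes. STAR and Cuffdiff are named for HFD samples, STAR, HOMER and DESeq2 for NC samples, with the mm10 genome, per the submitters' processing notes; the program that made the rlog values is not given in the sources used here. Of the columns, 35 were matched to a group by name, and 6 that could not be were not used.

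The fit took the 4 non-tumour HFD groups of 3 (12 libraries) and genes whose mean reached 3, and used limma 3.58.1 (lmFit, eBayes with trend, R 4.3.3), two-sided, with Benjamini-Hochberg adjustment over all 12227. Tumours stayed out because MupHe and IgAkMup tumours varied more within a group (median SD 0.295 and 0.260, against 0.109 to 0.157 in the liver groups). NC groups were fitted alone. On simulated data the fit recovered 95.9% of genes changed by 1 and 100.0% of those changed by 2 (log2), with 5 unchanged genes among 197 calls. The simulated noise was independent for each gene and library, without shifts that many genes of a library share. These rates may therefore not hold for the real libraries. Coordinates, promoters and positions were taken from RefSeq GRCm38.p6 by symbol, 12196 of 12227 genes matching. Tm7sf2, Cideb, Fdft1 and Ddit3 overlap other named genes there, and whether counting used strand is not given.

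The members and gene lists were chosen with earlier results of these data known. Named are the 12 genes with the largest called rise and fall without overlap, up to 4 called members per list (2 of the highest if none was called), the genes the genotype names point to, and genes called between the pairs. Dbp, Arntl, Isg15, Alb, Fas, Ccng1, Asl, Arg1, Tagln, Shmt2, Vldlr, Chac1, Fgf21, Slc7a11, Cidea, Srxn1, Osgin1, Oasl1, the interferon targets not called, Serpina3m, Serpina3k, Serpina3n and Manf were named after their values were seen. Alternatives were other libraries in the fit, weights, filters, normalizations, no trend, a replicate block and each library left out. Figures were drawn with matplotlib 3.10.9.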

Additional observations from a re-analysis of the deposited data

Results flagged for a closer look

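At 12 genes limma's test called the change from IgAkCLM to MupHe NASH different from the change from B6 to IgAkMup NASH, both on HFD (adjusted p under 0.05). The differences between the pairs, on the log2 scale, were -12.2 for Serpina3c, -2.41 for Serpina11, -1.66 for Dclk3, -1.48 for Tm7sf2, -1.44 for Mvk, -1.43 for Papss1, -1.28 for Il18, -1.14 for Fdx1, -0.91 for Sult1a1, 1.24 for Tymp, 2.28 for Nnt and 4.02 for Nnmt. Within each pair, 7 of these genes were called in opposite directions: Serpina3c, Serpina11, Mvk, Il18, Sult1a1, Nnt and Nnmt.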

How the results depend on the processing

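None of the 66 named genes called changed direction in any alternative it was tested in. Values near 0 that were not called did: Cd8a ran from -0.02 to 0.16. The medians of the following lists took both signs: Kupffer cells (-0.13 to 0.19), T and cytotoxic cells (-0.02 to 0.16), acute phase (-0.03 to 0.18), adipocytes (-0.39 to 0.35), fatty acid oxidation (-0.13 to 0.18), female-biased (-0.23 to 0.02), male-biased (-0.03 to 0.34) and urokinase (-0.31 to 0.29). Among the medians printed above that kept their sign, NRF2 fell to 0.23 without MupHe NASH 2, bile duct genes to 0.32 without MupHe NASH 1, and chaperones to 0.05 without IgAkCLM 2. Calls between MupHe NASH and IgAkCLM numbered 427, and were 69 with all groups in the fit, 1655 with array weights, 171 with no filter on low values, 752 with the 6 compared libraries alone, and 116 to 667 when 1 library was left out. Without MupHe NASH 6 and IgAkCLM 3 together, an alternative chosen after seeing the data, there were 612, of which 292 were among the 427. The share of calls that rose was 63.5%, and it was 79.7% with all groups, 51.7% with array weights, 51.2% with the 6 libraries alone, 52.2% without IgAkCLM 3 and 54.6% after median centring. Of the 66, 15 stayed called in every alternative they were tested in (Apol9a, Atf3, Ccnb2, Cd163, Cdh1, Ddit3, Ifi44, Ifit1, Irf7, Nnt, Nupr1, Serpina11, Serpina3c, Slc35f2 and Usp18), which was 16 for each but Ccnb2, with 15. The other 51 lost the call in at least 1, and 19 of them in at least 50% (Apoc3, Cideb, Cps1, Cyp27a1, Fdft1, Gdf15, Got1, Lcn2, Mdm2, Meg3, Mvk, Nnmt, Nsdhl, Plat, Plk2, Pmvk, Prodh, Slco1a4 and Thrsp).

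For IgAkMup NASH against B6, 313 calls became 31 with all groups, 598 with array weights, 207 with no filter and 74 to 296 with 1 library left out. The 12 calls between the pairs became 7 with all groups, 28 with array weights, 7 with no filter and 5 to 100 with 1 library left out, the most without IgAkCLM 3. For MupHe NC against B6 NC, 186 calls became 51 to 372. IgAkMup NC against MupHe NC gave 7 calls with a mean of at least 5. Other causes of these moves were not tested.

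Replicate numbers 1 and 2 occur in both groups, and whether they pair the samples is not known. Same-numbered libraries deviated from their group means with correlations of -0.157 and 0.050, and differently numbered ones with -0.110 to 0.169. With 3 libraries a group these values cannot decide it. With the replicate number as a block, the fit of the 6 libraries alone gave 1568 calls, of which 49.8% were higher. Slightly more genes thus fell than rose in that fit. The remaining library of each group has a number that the other group lacks. It therefore adds nothing to a difference taken within blocks, which rests on the libraries numbered 1 and 2. The block fit is among the alternatives counted above, so those counts include a difference from these libraries only.

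With 3 libraries a group and no depth known, small differences of weakly expressed genes are not detectable here.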

Other observations

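In an added fit over 24 libraries, the change from IgAkCLM to MupHe NASH was set against the change from B6 to MupHe among NC livers. Limma called 13 genes as unequal, 0.106% of 12254 tested. Higher in the HFD pair were Cyp4a31 (1.71), Nnt (1.43), Plcd3 (1.06), Hsdl2 (0.79) and Vma21 (0.72). Lower were Serpina3c (-6.21), Moxd1 (-5.20), Serpina11 (-1.49), Papss1 (-1.23), Mug2 (-1.11), Selenbp1 (-0.83), Sesn1 (-0.64) and Sephs2 (-0.56). No member of the interferon list was among the 13.

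Among the 427 genes called between MupHe NASH and IgAkCLM, Nsdhl, of cholesterol synthesis, was also called in the opposite direction between IgAkMup NASH and B6 (-1.13 and 1.19). The test of the difference between those values gave an adjusted p of 0.058 in limma's fit.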
